A study of Homo sapiens with 6 samples.

Results

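The genes described here are 10 Wnt target genes of the intestinal crypt: LGR5, ASCL2, SOX9, TNFRSF19, NOTUM, APCDD1, NKD1, RNF43, ZNRF3 and SP5. They were chosen by gene symbol, as every probe set that the platform annotation gives to 1 of these genes alone, which gave 18 of the 54675 probe sets and 10 of the 19775 named genes. The arrays measured total RNA of COLO-320DM, a colorectal cancer cell line, sorted into CD44-positive and CD44-negative cells. There were 3 untreated CD44-positive and 3 untreated CD44-negative arrays, numbered 01, 02 and 03 in each sort, and all came from this 1 line with no other agent or allele named. The labels did not say whether a number stands for a culture, a day or an extraction, and they did not name separate cultures, so the p-values below speak for the spread of these arrays alone, and that spread may be technical.

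In the absence of a Wnt signal beta-catenin is marked for breakdown by a complex built on AXIN and APC. When the signal arrives, or when APC is lost as in most colorectal cancers, beta-catenin enters the nucleus and switches on target genes together with TCF and LEF factors. Several targets encode inhibitors of the same pathway, which closes a negative feedback loop, and others mark or maintain the stem cells at the base of the crypt. LGR5 is the R-spondin receptor that marks these stem cells, and ASCL2 is the basic helix-loop-helix factor that maintains them. SOX9 is a transcription factor of stem and progenitor cells, and TNFRSF19, also called TROY, is a receptor of the TNF family that is on in crypt stem cells. Among the inhibitors, NOTUM is a secreted enzyme that removes the lipid from Wnt proteins, APCDD1 is a membrane protein that binds Wnt and LRP5, and NKD1 binds Dishevelled. RNF43 and ZNRF3 are ubiquitin ligases that take Frizzled receptors off the cell surface. SP5 is a zinc finger factor that represses some Wnt targets.

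The promoter of SP5 is shown because it alone among those searched held letters that TCF and LEF factors read, and that of APCDD1 as one that held none. RefSeq sequences of GRCh38.p14 were found for 6 start sites of 4 members, TNFRSF19, APCDD1, RNF43 and SP5. The 250 bases before each start were searched on both strands for the core that TCF and LEF factors read, spelled CTTTG with A or T at both of the next places. SP5 held 3 matches, which begin 148, 109 and 84 bases before the start and are in capitals below and do not overlap, while the other 5 windows held none. Of all 35116 promoters of this length 11.96% held at least 1 match and 0.122% at least 3. The matches describe letters and not bound sites.
SP5, chr2:170715087-170715336, plus strand, GRCh38.p14: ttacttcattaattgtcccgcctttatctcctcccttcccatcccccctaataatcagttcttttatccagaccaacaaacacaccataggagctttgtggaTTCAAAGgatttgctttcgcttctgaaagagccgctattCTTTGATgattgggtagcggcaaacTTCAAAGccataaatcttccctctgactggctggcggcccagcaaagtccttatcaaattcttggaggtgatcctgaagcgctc
APCDD1, chr18:10454385-10454634, plus strand, GRCh38.p14: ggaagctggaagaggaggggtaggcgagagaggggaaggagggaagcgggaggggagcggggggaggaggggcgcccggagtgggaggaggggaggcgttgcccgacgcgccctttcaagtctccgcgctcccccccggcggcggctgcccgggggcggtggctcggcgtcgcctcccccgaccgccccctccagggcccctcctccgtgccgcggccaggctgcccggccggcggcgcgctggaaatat

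The arrays were alike in scale, with median intensities from 44.9 to 46.5. The sort marker CD44 stood at 7.86, 8.12 and 7.11 on CD44-positive arrays 01, 02 and 03, against 5.41, 5.29 and 4.99 on the CD44-negative ones (log2 intensity). It was 5.54-fold higher in CD44-positive cells, a rough size because the CD44-negative values lay near the dim limit explained below, with an adjusted p of 0.106 by limma without the replicate number as a block and of 0.00176 with it. As to the labelled tissue, the intestinal factor CDX2 lay between 11.46 and 11.84 and the keratin KRT18 between 9.77 and 10.13, whereas EPCAM, CDH1 and KRT19 were under 5.12 on every array. That level is the dim limit, the 30th percentile of the mean log2 values of all named genes, below which a gene was not tested. RNA quality, read as the 3′ minus the 5′ control probe set, ran from -0.12 to -0.054 for GAPDH and from -0.069 to 0.14 for ACTB. The ACTB value was highest on array 03 of each sort, at 0.14 and 0.083, against -0.069 to 0.017 on the other arrays. GAPDH values had no order of numbers shared by the sorts. The part of RNA quality in differences between numbers was not tested. In RNA from whole sorts, fewer cells of a type and less RNA per cell cannot be told apart.

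Of the 10 members 9 were tested, and SP5, with a mean of 5.11 over the 6 arrays, fell under the dim limit. CD44 status and replicate number were examined in separate fits with limma over 13842 genes, with Benjamini-Hochberg adjustment over all of them. None of the 9 passed the test between the CD44 sorts, while LGR5, SOX9 and NOTUM passed it between replicate numbers. LGR5 was lower and SOX9 and NOTUM were higher on both arrays numbered 02, whichever the sort. Levels are given as log2 intensity, and they are not compared between genes because probe sets differ in brightness.

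**Figure D1:**
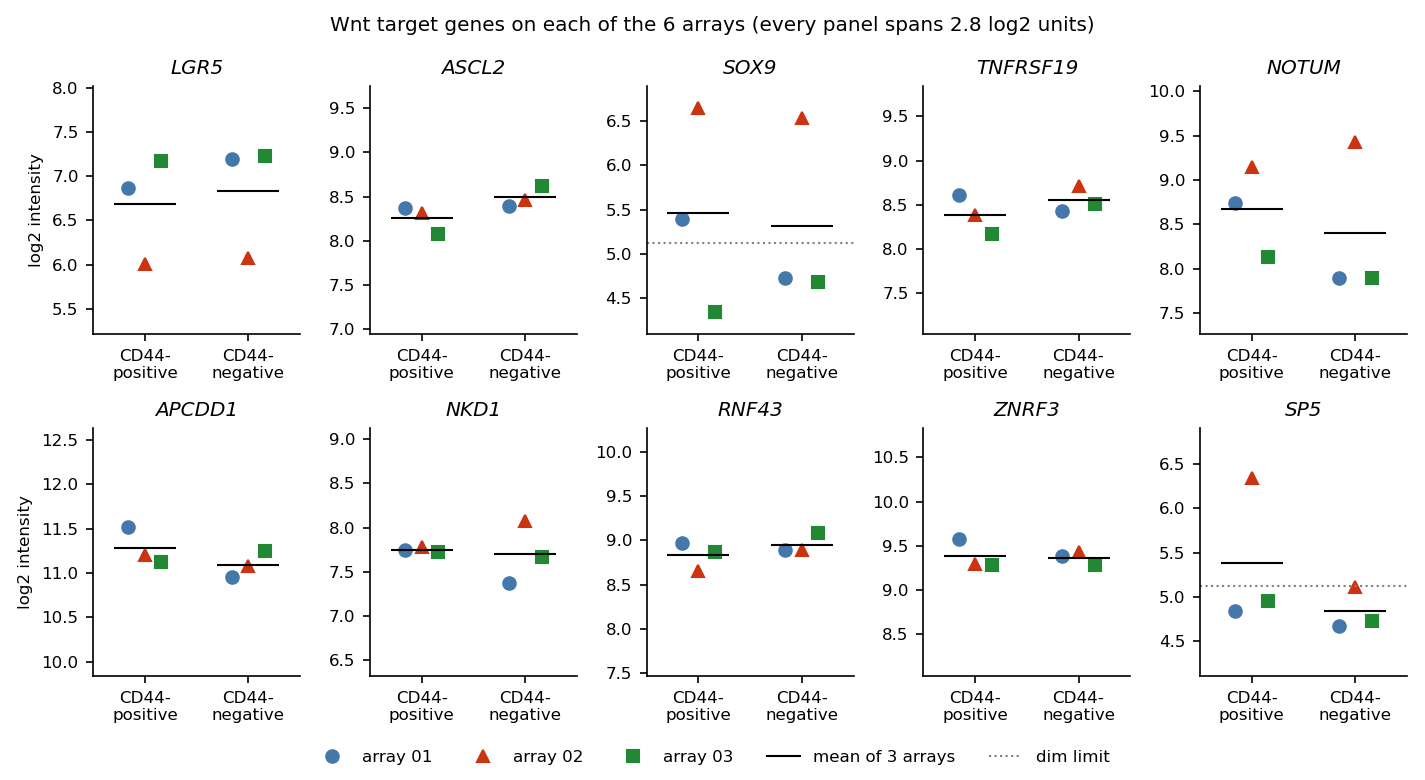
Log2 intensity (y axis) of the 10 members on each array, by CD44 sort (x axis), from each gene's brightest probe set on average. Circles, triangles and squares are arrays 01, 02 and 03, lines are means of 3 arrays and the dotted line is the dim limit of 5.12. The triangles of LGR5 lie lowest and those of SOX9 and NOTUM highest in both sorts.

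The first comparison, CD44-positive with CD44-negative cells, is the one that the study's design names. LGR5 stood at 6.86, 6.003 and 7.17 on the CD44-positive arrays and at 7.20, 6.07 and 7.23 on the CD44-negative arrays. The sorts overlapped, and array 02 was the lowest of each. The means were 6.68 ± 0.61 and 6.83 ± 0.66 (SD, n = 3 each), a difference of -0.15 with a 95% interval from -1.02 to 0.71 (adjusted p = 1.00).

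ASCL2 was the member whose sorts stood apart. It had 8.37, 8.31 and 8.08 on the CD44-positive arrays, against 8.39, 8.46 and 8.62 on the CD44-negative arrays. Every CD44-positive value was below every CD44-negative one, by 0.022 between the nearest pair of same-numbered arrays and by 0.54 between the farthest. The difference of -0.24 ± 0.11 (SE), or 0.85-fold, did not pass (unadjusted p = 0.0638, adjusted p = 1.00, with the replicate block adjusted p = 0.679). ASCL2 was 1 of 9 members without overlap, and 5.43% of all genes tested had none. Its second probe set was dim throughout, at 2.46 to 3.11, and differed by 0.010.

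SOX9 stood at 5.40, 6.65 and 4.34 on the CD44-positive arrays, against 4.73, 6.54 and 4.68 on the CD44-negative arrays. The spread within each sort, an SD of 1.15 and 1.06, was far wider than the difference of 0.15 between them (95% interval -1.34 to 1.63). Of the SOX9 sum of squares 94.2% lay between replicate numbers, and with the replicate block the interval was -0.24 to 0.54. The second SOX9 probe set differed by 0.53. TNFRSF19 had 8.61, 8.38 and 8.17 on CD44-positive arrays and 8.43, 8.72 and 8.51 on CD44-negative arrays. Its sorts overlapped, with a difference of -0.16 (-0.47 to 0.14), and its other 2 probe sets differed by -0.11 and -0.092.

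Among the feedback inhibitors the sorts overlapped in each of the 5 tested. NOTUM stood at 8.75, 9.15 and 8.13 on the CD44-positive arrays, against 7.89, 9.43 and 7.89 on the CD44-negative arrays. Array 02 was the highest of both sorts, and the difference was 0.27 (95% interval -0.71 to 1.25). Single arrays were left out without the replicate block, so the number of the missing array stood in the other sort only. The NOTUM difference was then 0.78 without CD44-negative array 02 and 0.54 without CD44-positive 03. It was 0.030 without CD44-positive 02, 0.010 without CD44-negative 01 and 0.011 without CD44-negative 03. APCDD1 had 11.51, 11.20 and 11.12 on CD44-positive arrays and 10.96, 11.08 and 11.25 on CD44-negative arrays. Its difference of 0.18 (-0.11 to 0.48) came with pair values of 0.56, 0.12 and -0.13, and the second probe set gave 0.19. NKD1 stood at 7.75, 7.78 and 7.72 on the CD44-positive arrays, which lay within the 7.38, 8.07 and 7.66 of the CD44-negative arrays. The NKD1 difference was 0.047 (-0.33 to 0.42), and the gene varied less among CD44-positive arrays (SD 0.026) than among CD44-negative ones (SD 0.35), a contrast of spreads that was not tested.

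Both ubiquitin ligases varied about as much as a typical gene over the 6 arrays. The SD was 0.14 for RNF43 and 0.12 for ZNRF3, beside a median of 0.13 over all genes tested. RNF43 had 8.97, 8.66 and 8.87 on the CD44-positive arrays, against 8.89, 8.89 and 9.08 on the CD44-negative arrays, a difference of -0.12 (95% interval -0.37 to 0.14). ZNRF3 had 9.58, 9.29 and 9.29 on the CD44-positive arrays, against 9.38, 9.43 and 9.28 on the CD44-negative arrays, a difference of 0.022 (-0.23 to 0.27). Both pairs of sorts overlapped.

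SP5, which was not tested as a gene, had 4.84, 6.34 and 4.95 on the CD44-positive arrays, against 4.67, 5.11 and 4.73 on the CD44-negative arrays. CD44-positive array 02 alone stood above the dim limit. The pairs differed by 0.17, 1.23 and 0.22, and the single probe set of SP5 did not pass in the fit over all probe sets (adjusted p = 1.00 without and 0.634 with the replicate block).

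In all, 0 of 9 members passed for CD44 status, where 0% of the 13842 genes did, and 0 of 9 had an unadjusted p under 0.05, where 1.97% did. With the replicate number as a block 0 of 9 passed, against 0.0578% of genes. On each gene's brightest probe set 0 of 9 had an unadjusted p under 0.05 with the block, against 7.49% of genes. The block narrowed the 95% interval of LGR5 to -0.34 to 0.036, that of SOX9 to -0.24 to 0.54 and that of NOTUM to -0.16 to 0.70. Means leaned towards the CD44-positive cells in 5 of the 9 and towards the CD44-negative cells in 4, with a median difference of 0.022 beside -0.0025 over all genes. Only LGR5 and ASCL2 of these 9 had 1 sign in 3 of 3 same-numbered pairs, as had 28.5% of genes. The second LGR5 probe set differed by 0.074 the other way, with pairs of -0.11, 0.12 and 0.21. Single arrays were left out in the fit without the block, so the number of the missing array stood in the other sort only. The sign of LGR5 then turned without CD44-positive array 02 (0.19) or CD44-negative arrays 01 (0.028) or 03 (0.046). Its same-numbered pairs were all below 0, at -0.33, -0.070 and -0.059. Likewise SOX9 came to -0.45, -0.15 and -0.17 without these same arrays. At the level of probe sets 0 of 17 tested passed without the block (0.00262% of all did) or with it (0.0785%). By limma with the block 2 of the 17 had an unadjusted p under 0.05, a share not counted over all probe sets. The second SOX9 probe set, higher in 3 of 3 pairs by 0.75, 0.34 and 0.49, had an unadjusted p of 0.000716 (adjusted p = 0.217). The SP5 probe set had an unadjusted p of 0.0243 (adjusted p = 0.634).

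**Figure D2:**
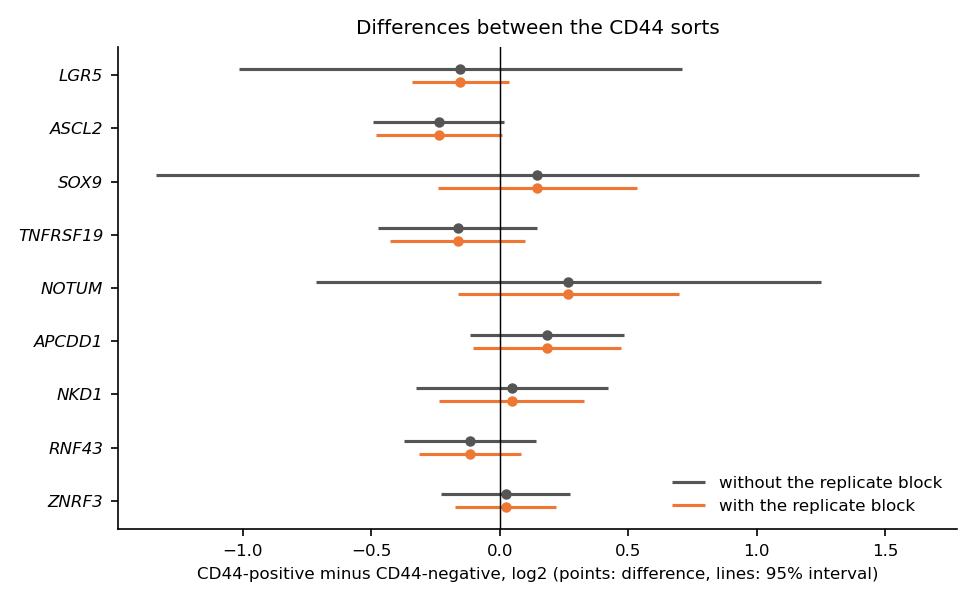
Difference between CD44-positive and CD44-negative arrays (x axis, log2) for the 9 members tested, as points with 95% intervals from limma without the replicate block (grey) and with it (orange). All intervals include 0, and those of LGR5, SOX9 and NOTUM are far narrower with the block.

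The second comparison asked whether the members differed between the replicate numbers, with CD44 status held in the fit, so that each number was represented by 1 array of each sort. By limma's F test 3 of 9 members passed, LGR5 (adjusted p = 0.00481), SOX9 (0.00728) and NOTUM (0.0294), where 10.3% of all genes did. The same 3 had an unadjusted p under 0.05, as had 32.4% of genes. The other 6 had adjusted p values from 0.243 for NKD1 to 0.963 for ASCL2. The count over all genes, 1430, was 733 (5.30%) without CD44-negative array 02 and 2236 (16.2%) without CD44-negative array 03, and the same 3 members passed each time.

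LGR5 set array 02 apart downwards. Its mean was 6.04 on the arrays numbered 02, against 7.03 on those numbered 01, a difference of -0.99 ± 0.10 (SE, adjusted p = 0.00893) or 1.99-fold lower. It was 7.20 on the 03 arrays, against 6.04 on the 02 arrays, which is 2.24-fold higher (1.17 ± 0.10, adjusted p = 0.00315). Arrays 03 and 01 differed by 0.17 (95% interval -0.060 to 0.40), which did not pass. A second LGR5 probe set, at 5.79, 5.56 and 6.24 on CD44-positive and 5.89, 5.44 and 6.03 on CD44-negative arrays, had the same order of numbers, with smaller steps to and from 02. For that probe set 03 minus 02 was 0.64 (adjusted p = 0.0178) and 02 minus 01 was -0.34 (adjusted p = 0.187).

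SOX9 moved the other way and by more. Its mean was 6.60 on the 02 arrays, against 5.06 on the 01 arrays, a difference of 1.53 ± 0.20 (adjusted p = 0.0179) or 2.90-fold higher. On the 03 arrays it was 4.51, against 6.60 on the 02 arrays, a difference of -2.08 ± 0.20 (adjusted p = 0.00388). Both 03 values and CD44-negative array 01 were dimmer than the dim limit, which makes these sizes rough. The second SOX9 probe set, with 4.76, 6.60 and 3.64 on CD44-positive and 4.01, 6.25 and 3.16 on CD44-negative arrays, differed by -3.02 between numbers 03 and 02 (adjusted p = 0.000385). Numbers 03 and 01 differed by -0.55 in SOX9 (adjusted p = 0.140). That contrast passed without CD44-negative array 01 (-0.94, adjusted p = 0.0306) or 03 (-0.91, adjusted p = 0.0137). It shrank to -0.15 without CD44-positive array 01 (adjusted p = 0.663) and to -0.18 without CD44-positive array 03 (adjusted p = 0.599). Both SOX9 probe sets carry the _s_at suffix, which marks probes shared by transcripts.

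NOTUM had its highest value of each sort on array 02. Its mean was 8.01 on the 03 arrays, against 9.29 on the 02 arrays, a difference of -1.28 ± 0.23 (SE, adjusted p = 0.0188), which is 2.43-fold lower. Numbers 02 and 01 differed by 0.97 ± 0.23, which missed the threshold (adjusted p = 0.0705). This contrast passed without CD44-positive arrays 01 (adjusted p = 0.00978), 02 (0.00105) or 03 (0.0160) or CD44-negative array 03 (0.0160). It shrank to 0.53 without CD44-negative array 01 (adjusted p = 0.164) and to 0.56 without CD44-negative array 02 (adjusted p = 0.247). With a variance trend and robust moderation NOTUM lost its F test (adjusted p = 0.145) and its 03 minus 02 call (0.106). A single probe set reads NOTUM.

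**Figure D3:**
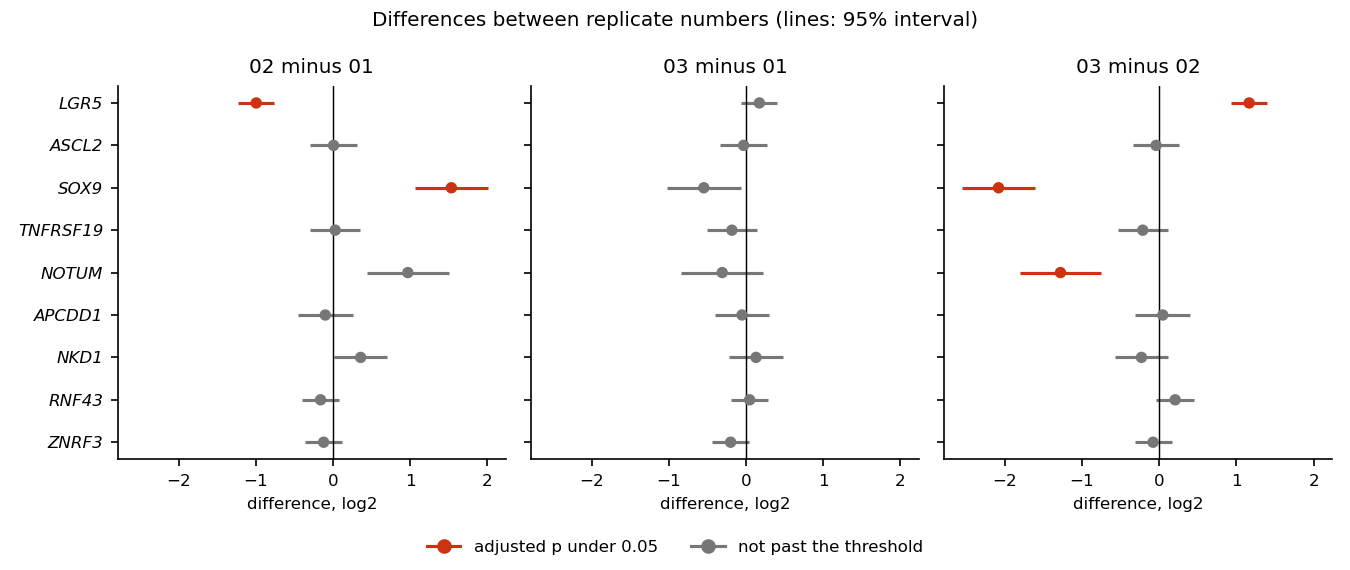
Differences between replicate numbers (x axis, log2) for the 9 members tested, 1 panel for each pair of numbers, as points with 95% intervals. Red marks an adjusted p under 0.05: LGR5 and SOX9 for 02 minus 01, and LGR5, SOX9 and NOTUM for 03 minus 02.

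The remaining members moved less with the number. NKD1 was highest on array 02 in both sorts, with 02 minus 01 at 0.36 (95% interval 0.013 to 0.71, adjusted p = 0.249). One of its other 2 probe sets, with 6.94, 7.27 and 6.79 on CD44-positive and 6.60, 7.36 and 6.81 on CD44-negative arrays, passed the F test over all probe sets (adjusted p = 0.0497). ASCL2, APCDD1, RNF43, ZNRF3 and TNFRSF19 differed between any 2 numbers by at most 0.21 either way on their brightest probe sets. Their other probe sets reached -0.43 in TNFRSF19, -0.39 in APCDD1 (both 03 minus 02) and -0.28 in ASCL2 (02 minus 01, dim), with no call in the tested ones. SP5, as a probe set, was highest on array 02 in each sort and had an adjusted p of 0.0634. Over all probe sets 6 of the members' 17 tested passed the F test, which were 2 of LGR5, 2 of SOX9, 1 of NOTUM and 1 of NKD1, where 8.28% of 38229 did. Between numbers 02 and 01 the first LGR5 and both SOX9 probe sets passed (1.23% of all did), and between 03 and 01 the second SOX9 probe set (6.04%). Between 03 and 02 the same 6 passed that had passed the F test (7.47%).

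By direction, 1 of 9 members was higher on the 02 than on the 01 arrays, SOX9, where 0.824% of genes were, and 1 was lower, LGR5, where 2.41% were. On the 03 arrays 1 was higher than on the 02 arrays, LGR5 (background 5.09%), and 2 were lower, SOX9 and NOTUM (4.84%). Between 03 and 01 none passed (4.12% of genes did). Both 02 arrays lay above the other 4 in SOX9, NOTUM and NKD1, 3 of 9 members, and below them in LGR5, 1 of 9. Over all genes these shares were 11.1% and 13.7%. The counts of all genes behind the pairwise shares moved with single arrays. For 02 minus 01 the count of 448 was 126 without CD44-negative array 01, 143 without CD44-negative 02, 273 without CD44-positive 01 and 1122 without either 03 array. For 03 minus 01 the count of 570 was 35 without CD44-positive array 01, 242 without CD44-positive 03 and 1329 without CD44-negative 03. For 03 minus 02 the count of 1375 was 366 without CD44-negative array 02 and 618 without CD44-positive 02. Both 03 arrays lay below the other 4 in SOX9 and ZNRF3, as they did in 22.6% of genes.

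The share of a gene's variation that lay between numbers separated the members. It was 96.4% of the sum of squares in LGR5, 94.2% in SOX9 and 80.5% in NOTUM, against 1.14% in ASCL2 and 5.47% in APCDD1. The median over the 9 was 53.3%, beside 65.6% over all genes tested. CD44 status held 53.1% of the sum of squares in ASCL2 and at most 28.2% in the other 8. LGR5, SOX9 and NOTUM were also among the more variable genes, with SDs over the 6 arrays of 0.57, 0.99 and 0.67, where 95% of genes had under 0.32.

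**Figure D4:**
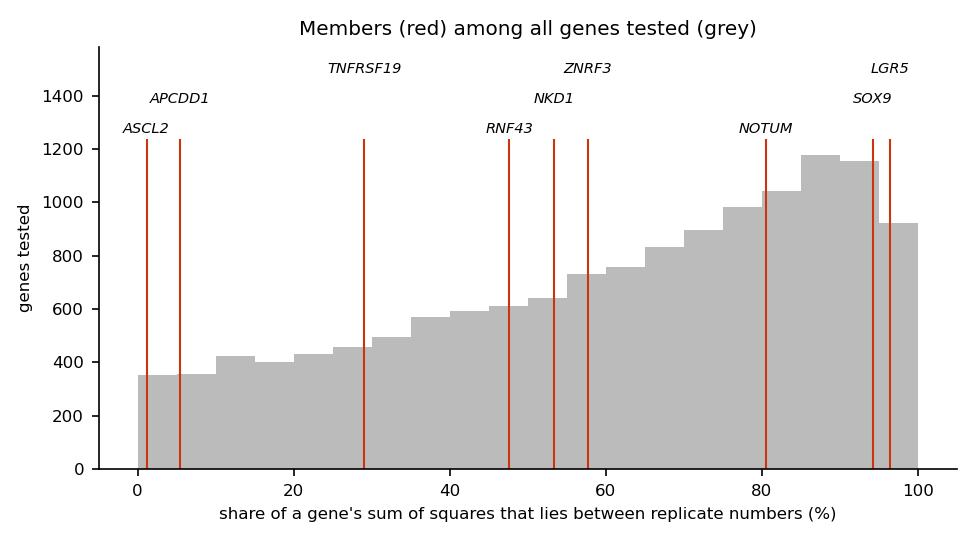
Histogram of the share of each gene's sum of squares that lies between replicate numbers (x axis, %) for 13842 genes (y axis, number of genes). Red lines mark the 9 members tested, from ASCL2 at 1.14% to LGR5 at 96.4%.

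SOX9 varied most among the members, and the genes whose profile over the 6 arrays was closest to it were looked up by the root mean square difference of log2 values centred on each gene's mean. They were CDKN1C, a cyclin-dependent kinase inhibitor (0.20), NAP1L5 (0.24), RHOU (0.32), GAP43, a growth cone protein (0.35), and LSAMP, a neural cell adhesion protein (0.36). The median over 13841 genes was 0.91. CDKN1C had 7.39, 8.40 and 6.46 on CD44-positive arrays and 6.20, 8.38 and 6.47 on CD44-negative arrays, with both 02 values highest. NOTUM ranked 7 in the same order, at 0.40, and LGR5 ranked 13810, at 1.43.

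**Figure D5:**
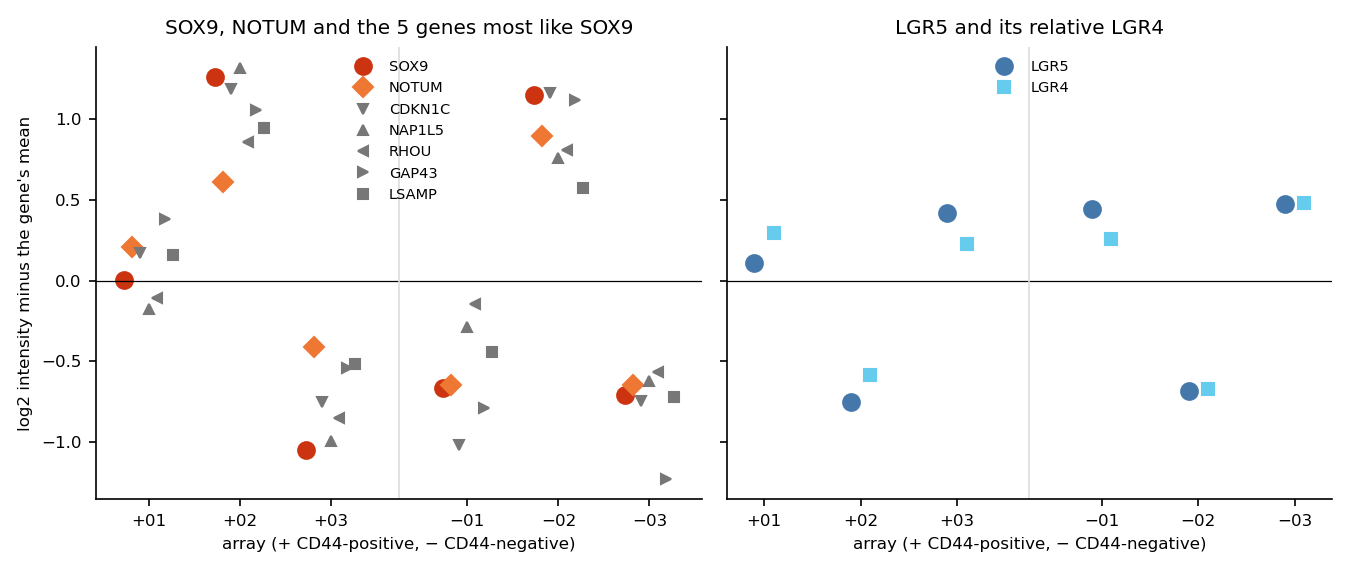
Log2 intensity minus the gene's mean (y axis) on each array (x axis, CD44-positive then CD44-negative). Left, SOX9, NOTUM and the 5 genes closest to SOX9, all highest on array 02 of each sort. Right, LGR5 and LGR4, both lowest on array 02 of each sort.

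Other genes of the pathway were read from lists that partly overlap. Of the members' nearest relatives 8 of 12 were tested, and 2 differed between numbers (25%, where 10.3% of genes did). LGR4, the more widely used R-spondin receptor, had 7.40, 6.52 and 7.33 on CD44-positive arrays and 7.36, 6.43 and 7.58 on CD44-negative arrays. It was thus lowest on both 02 arrays, as LGR5 was, with 02 minus 01 at -0.90 (adjusted p = 0.0127) and 03 minus 02 at 0.98 (adjusted p = 0.00511). SP8, a zinc finger factor of the family of SP5, differed by -1.58 between 02 and 01 (adjusted p = 0.0280), while the SP5 probe set had 0.975 with no call (adjusted p = 0.109). The size for SP8 is rough, because it stood at 5.36 on CD44-positive array 02 and at 4.33, under the dim limit, on CD44-negative array 02. No relative passed for CD44 status, and their median CD44 difference was -0.020.

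Among other Wnt targets 22 of 30 were tested and 5 differed between numbers (22.7%, where 10.3% of genes did), 12 being higher and 10 lower in CD44-positive cells with no call. AXIN2, the feedback scaffold of the destruction complex, had 11.42, 11.42 and 11.75 on CD44-positive arrays, against 11.35, 11.51 and 11.86 on CD44-negative arrays. Its high arrays were the 03 ones, with 03 minus 01 at 0.43 (adjusted p = 0.0450). JUN, an AP-1 subunit, was likewise highest on 03 (03 minus 02 at 0.74, adjusted p = 0.00707). MET, the receptor of hepatocyte growth factor, was lowest on 02 (02 minus 01 at -0.44, adjusted p = 0.0447), and TEAD4, a transcription factor, was lower on 03 than on 01 (-0.44, adjusted p = 0.0419).

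In the list of other crypt base stem cell genes 15 of 20 were tested and 4 differed between numbers (26.7%, where 10.3% of genes did). Besides LGR4 and AXIN2 these were LRIG1, a restraint on ErbB receptors, with 02 minus 01 at -0.61 (adjusted p = 0.0276), and ALCAM, an adhesion molecule, at -0.49 (adjusted p = 0.0294). CD44 itself is in this list and, as the marker of the sort, was the 1 of the 15 that passed for CD44 status with the block. Of 18 other Wnt inhibitors tested 4 differed between numbers (22.2%, beside the same 10.3%). DACT1, a partner of Dishevelled, was at 7.38, 7.59 and 6.26 on CD44-positive arrays and at 6.14, 7.29 and 5.98 on CD44-negative arrays. It was highest on 02 of each sort, with 03 minus 02 at -1.32 (adjusted p = 0.0152). TLE4, a corepressor that binds TCF, was lower on 02 than on 01 by -0.44 (adjusted p = 0.0480), and SOSTDC1, a secreted antagonist, was lower on 03 than on 01 by -0.48 (adjusted p = 0.0391). For CD44 status 14 of the 18 were higher and 4 lower with a median of 0.067 and no call. Of 12 R-spondin, LGR, Frizzled and LRP genes tested, 1 differed between numbers, LGR4 (8.33%, beside 10.3% of genes).

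Some markers of cell types also moved with the number, and their part in the results on LGR5, SOX9, NOTUM and ASCL2 was not tested. By the F test 33.3% of fibroblast, 25% of neuroendocrine, 11.1% of epithelial and 8.33% of differentiated colon markers tested passed. Over all genes the share was 10.3%. Of the fibroblast markers 9 of 12 were tested and 3 passed between numbers, in both directions. COL3A1 was at 11.63, 10.02 and 11.60 on CD44-positive arrays and at 10.61, 9.45 and 10.85 on CD44-negative arrays. It was thus lowest on 02, as LGR5 was, and S100A4 was highest there, with 02 minus 01 at 1.18 (adjusted p = 0.0180). ACTA2 was lower on 02 than on 01 by -0.65 (adjusted p = 0.0297), with both 02 values, 5.08 and 4.88, under the dim limit. The summed intensity of the fibroblast list was 10554 to 12878 on CD44-positive and 9438 to 10001 on CD44-negative arrays, without overlap. It was remarked on because the sums of all other lists overlapped. Those of differentiated colon did so only just, at 986 to 1041 on CD44-positive and 931 to 987 on CD44-negative arrays. Of single genes tested 5.43% had no overlap, a share that does not apply to sums of lists. The fibroblast sum weighs bright probe sets most, here VIM and COL3A1. Of the 9 tested markers 6 were on average higher and 3 lower in CD44-positive cells, none with a call. COL3A1, higher in 3 of 3 same-numbered pairs, just missed the threshold by limma with the replicate block (adjusted p = 0.0526). COL1A1 ran against the sum, at 7.76, 7.73 and 7.45 on CD44-positive and 7.95, 7.85 and 7.85 on CD44-negative arrays. COL1A2 went with the sum, each CD44-positive value lying above every CD44-negative one. LUM, PDGFRA and FAP were dim on average and were not tested. LUM still stood higher on the CD44-positive arrays, at 5.63, 4.18 and 3.84, against 2.36, 2.79 and 2.44 on the CD44-negative arrays. Of these LUM values only that of CD44-positive array 01 lay above the dim limit. ENO2 was the 1 of 4 tested neuroendocrine markers that passed, with 02 minus 01 at 2.07 (adjusted p = 0.00457). Its values on the 01 and 03 arrays, 4.01 to 4.88, were under the dim limit, which makes this size rough. The other tested ones were UCHL1, bright at 12.69 to 12.89, NCAM1 at 5.93 to 6.15 and SYP at 5.31 to 5.59. CHGA and INSM1, which were not tested, lay between 2.69 and 3.64. Of 9 tested epithelial markers CDH17 passed, with 03 minus 02 at -0.81 (adjusted p = 0.0222), and of 12 tested markers of differentiated colon CA2, a carbonic anhydrase, passed with 03 minus 01 at -0.81 (adjusted p = 0.0146). None of 4 leukocyte and none of 5 endothelial markers tested passed for the number or for CD44 status, and their summed intensities lay between 404 and 451 and between 552 and 617 over the 6 arrays.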

How the data were processed

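Per the labels' protocols, biotinylated cRNA from total RNA was read on Affymetrix arrays. The deposited values are linear intensity values that had gone through RMA, which corrects background, equalises array distributions and sums probes, per the submitters' processing notes. Its version and the genome build are not given in the sources used here. It can shrink differences of dim genes. The number of arrays limits the precision of every value.

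Here log2 was taken with no pseudocount. Each of 19775 genes, named from GEO's platform annotation with symbols updated from RefSeq for 41037 of 41091 probe sets of 1 gene, was represented by its probe set with the highest mean, and 13842 genes passed the dim limit at the 30th percentile. Genes were compared with limma 3.58.1 (R 4.3.3), two-sided, with a threshold of 0.05 for the adjusted p. CD44 status was fitted alone, and replicate number with CD44 status as a covariate. An interaction would have no residual degrees of freedom. A fit over 38229 probe sets, those above the 30th percentile of all probe sets, read every probe set of the members. The scripts were tested on simulated data. Tables and figures were made with Python 3.11.15, pandas 2.3.3 and matplotlib 3.10.9.

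Same-numbered arrays deviated together from their sort means, with correlations of 0.465, 0.689 and 0.626. The numbers were therefore taken to pair the arrays, from the data and not from the labels. The block was planned as an alternative and is printed beside the unblocked values where it changes a count of calls. The CD44 intervals of single members are without it unless the block is named.

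The members and lists were chosen with earlier results of these data known. All 10 members were named whatever their values, with CD44 and AXIN2 as reference points. Genes of other lists were named where they passed, up to 4 a list and fit, and the 5 genes most like the most variable member. Markers named to check the tissue, and list genes named though they did not pass, were chosen after their values were seen. Other normalizations, dim limits, probe set rules, variance models, array weights and each array left out were the alternatives.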

Additional observations from a re-analysis of the deposited data

How the results depend on the processing

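The calls of LGR5 and SOX9 between replicate numbers held under every alternative in which they were tested, 14 for LGR5 with adjusted p from 5.34e-05 to 0.0106 and 12 for SOX9 with 9.37e-05 to 0.0111. SOX9 was not tested at the 50th percentile or when probe sets with an _s_at or _x_at suffix were left out, and 1 member then passed for 02 minus 01. NOTUM kept its call in 13 of 14 alternatives and lost it with a variance trend (adjusted p = 0.145). No member passed for CD44 status under any alternative. Apart from the block and its left-out pairs, these fits had no block and passed at most 2 genes. They therefore say little about the members. For CD44 status the replicate block passed 8 genes, no dim filter 2, probe sets without those suffixes 1 and array weights 1, and leaving out an array gave 0 to 1. With the block, leaving out a pair of same-numbered arrays gave 10 to 127 genes, 63 of them without pair 02 and 127 without pair 03. Between numbers, no dim filter passed 745 genes, probe sets without suffixes 932 and a variance trend 3149, and leaving out an array gave 733 to 2236. For 03 minus 01, 1 member passed when probe sets were averaged by gene, SOX9 (-0.77, adjusted p = 0.0388), and 0 to 1 when an array was left out.

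Uncalled differences changed sign. For CD44 status, over arrays left out, LGR5 ran from -0.53 to 0.19, SOX9 from -0.45 to 0.76, NKD1 from -0.12 to 0.23 and ZNRF3 from -0.075 to 0.072, and ZNRF3 was -0.027 with array weights. NOTUM ran from -0.75 to 0.13 for 03 minus 01. The genes and probe sets tested when an array was left out were those chosen on all 6, and the lone array of a number was assumed to vary like the others. The CD44 values here came from the fit without the block, in which a missing array left its number in the other sort only. The cause of these changes of sign was not tested. SP5 was tested without a dim filter, with mean probe sets and without suffixes, with adjusted p between numbers of 0.0881, 0.0644 and 0.0625. Signal near the background limits the values of SP5 and of the low SOX9 arrays.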
